A study of Homo sapiens with 6 samples.

Results

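Levels of the alpha and beta tubulin genes TUBA1A, TUBA1B, TUBA1C, TUBA4A, TUBB, TUBB2A, TUBB2B, TUBB3, TUBB4B and TUBB6 are described for BT549, a cell line established from a human breast carcinoma. They were chosen by gene symbol, 10 of the 19923 genes in the deposited table, with 4 alpha and 6 beta genes. Gene expression was measured by bulk RNA sequencing in 3 libraries of control cells and 3 of cells given an agent labelled ENL. What ENL stands for is not written in the labels, nor are its dose, exposure time or vehicle. They do not tell whether libraries of 1 group are separate cultures, so each p-value reflects the spread among libraries, which may be technical. In bulk libraries, fewer cells with a transcript and less transcript per cell cannot be told apart.

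Microtubules are hollow polymers of alpha and beta tubulin, which fold with the help of prefoldin, the TRiC/CCT chaperonin and the tubulin folding cofactors and join the polymer as a dimer. Vertebrate genomes hold several genes for each subunit. Their products, called isotypes, share most of their sequence and differ most in the acidic tail at the C-terminal end, to which motors, microtubule-associated proteins and modifying enzymes bind. Cells also tune tubulin mRNA to the amount of free tubulin dimer, since a rise in free dimer leads to decay of tubulin mRNAs during translation, a process that needs the factor TTC5. TUBB3 is normally typical of neurons, and its presence in carcinomas is widely studied in connection with taxane drugs, which bind beta tubulin.

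Totals of estimated counts were 74457932 to 85310759 units per library, in a table where 1 sequenced fragment was worth about 4 units. ENL library 3 was the least like its group, with a chi-square per degree of freedom of 153.4 and 178.1 against the other ENL libraries, where the other pairs within a group had 69.7 to 76.6. The label gives mammary epithelium as the tissue, but the epithelial markers EPCAM and CDH1 did not exceed 0.249 and 0.358 CPM (counts scaled to library size, normalised by the trimmed mean method TMM) in any library, whereas the mesenchymal marker VIM was at 2480.2 CPM or more. The epithelial markers KRT19, CLDN3 and ESRP1 did not exceed 1.01, 0.866 and 0.366 CPM either. The remaining epithelial markers looked at were present. KRT18 was at 21.7 to 31.3 CPM, and KRT8 at 15.8 ± 2.42 CPM in control and 241% of that in ENL (edgeR adjusted p = 0.000991). CLDN4 was at 10.1 ± 0.896 CPM in control and 3.50 ± 0.706 in ENL. Among mesenchymal markers VIM was at 2743 ± 453 CPM in control and 5949 ± 503 in ENL, and SPARC at 331 ± 5.18 CPM in control and 92.7 ± 3.04 in ENL. FN1 was at 290 ± 20.7 CPM in control and 387 ± 42.3 in ENL, and CDH2 at 3.94 ± 0.790 and 7.23 ± 1.55. Both were called higher (edgeR adjusted p = 0.018 and 0.0201), while ZEB1 did not pass (0.32). The part of these differences in the tubulin values was not tested. The leukocyte marker PTPRC did not exceed 1.20 CPM, the endothelial marker CDH5 was at 0 in all 6 libraries, and the endothelial marker VWF was at 5.45 to 8.54 CPM.

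The sequences below show how far the coding ends of the beta members differ, with those of TUBB2A and TUBB2B nearly the same. They are the last 57 coding bases and the stop codon (60 bases) of the 6 beta members, from GENCODE 29 on GRCh38. Capitals mark bases that differ from TUBB, or that TUBB lacks, in an alignment of the whole coding sequences. The genes have 444 (TUBB) to 450 (TUBB3) codons, so the rows do not line up base by base. These are chr6:30724338-30724397 (TUBB, plus strand), chr6:3153863-3153922 (TUBB2A, minus), chr6:3224751-3224810 (TUBB2B, minus), chr16:89935745-89935804 (TUBB3, plus), chr9:137243497-137243556 (TUBB4B, plus) and chr18:12326071-12326130 (TUBB6, plus).
TUBB: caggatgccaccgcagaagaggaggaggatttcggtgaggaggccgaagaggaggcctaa
TUBB2A: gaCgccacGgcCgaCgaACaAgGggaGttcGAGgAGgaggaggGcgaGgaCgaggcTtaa
TUBB2B: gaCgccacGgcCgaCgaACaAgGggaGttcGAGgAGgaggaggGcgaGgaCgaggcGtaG
TUBB3: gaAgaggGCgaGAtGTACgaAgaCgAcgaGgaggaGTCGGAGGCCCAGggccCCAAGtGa
TUBB4B: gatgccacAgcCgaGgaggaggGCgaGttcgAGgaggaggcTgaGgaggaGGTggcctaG
TUBB6: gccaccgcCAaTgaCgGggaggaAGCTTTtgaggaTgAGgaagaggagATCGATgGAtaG

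Of the 60 bases shown, 14 were marked in TUBB4B, 18 in TUBB2A, 19 in TUBB2B, 23 in TUBB6 and 32 in TUBB3. Over the whole coding sequence TUBA1A and TUBA1B were 97.2% identical, TUBA1B and TUBA1C 96.8%, and TUBB2A and TUBB2B 98.2%. The longest identical run was 725 bases between TUBB2A and TUBB2B and 326 between TUBA1B and TUBA1C, but 35 between TUBB and TUBB4B. Values of single genes in the TUBA1 and TUBB2 groups are therefore uncertain, and their sums are given beside them. TUBB3 and TUBB2A, though less alike overall (87.8%), still shared a run of 185 bases. TUBB4B shared runs of 143 bases with TUBB2A and with TUBB2B, and of 140 with TUBB3. TUBA1A and TUBA1C lie on opposite strands and their exons overlap each other by 490 bases, and TUBA1B, TUBA4A, TUBB, TUBB2B, TUBB4B and TUBB6 also share exon bases with an antisense neighbour. The sources do not state whether strand was kept, so reads could pass between these partners.

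Most alpha tubulin mRNA was lower in ENL-treated cells, while the beta genes divided. TUBA1A, TUBA1B and TUBA1C were at 63.3% to 68.0% of control, TUBB4B at 78.6%, and TUBB6 at 39.2%, the largest change of the 10 members. TUBB and TUBB2A, with log2 fold changes near 0, and TUBA4A, TUBB2B and TUBB3, with wide intervals, did not pass the test. By the quasi-likelihood test of edgeR, adjusted after Benjamini and Hochberg over 14086 genes, 5 of the 10 members were lower at an adjusted p below 0.05 and 0 were higher. Of all genes tested, 38.4% were called, 18.4% lower and 20.0% higher. Since TUBA1A, TUBA1B and TUBA1C are nearly identical in coding sequence, their calls may not be separate from each other. ENL libraries lay wholly below control libraries in the same 5 members (27.6% of all genes tested) and wholly above in 0 (26.4%). The median log2 fold change of the members was -0.47, against -0.02 for all genes tested. The members were chosen with earlier results of these data known, so these contrasts with all genes are descriptions and not a test. The count of lower members was 4 without control library 1 or 2, 3 without control library 3 or ENL library 1, and 5 without ENL library 2 or 3. Scaled by library totals alone, which moved the median of all genes to -0.23, 6 members were called lower.

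**Figure D1:**
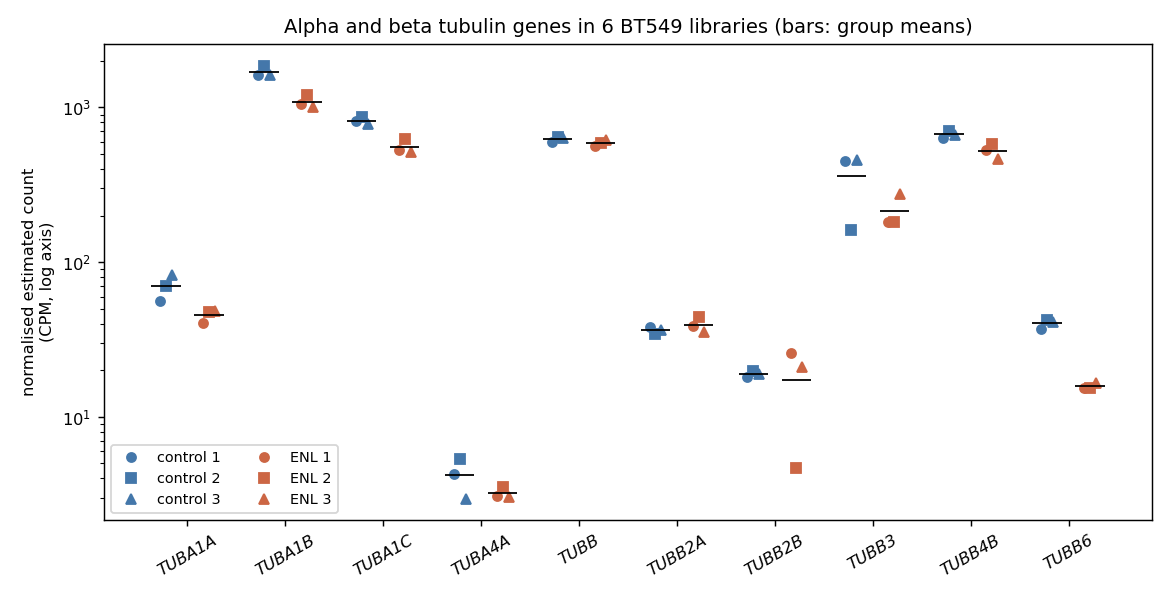
Normalised estimated counts (CPM, log axis) of the 10 tubulin genes in 3 control (blue) and 3 ENL (orange) libraries. Points are libraries and bars are group means. ENL libraries lie wholly below control for TUBA1A, TUBA1B, TUBA1C, TUBB4B and TUBB6, control library 2 stands low for TUBB3 (162 CPM) and ENL library 2 for TUBB2B (4.67 CPM).

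TUBA1B (chromosome 12, 49127782 to 49131397, minus strand, GRCh38) encodes the alpha tubulin with the highest level here. It measured 1633, 1863 and 1624 CPM in control libraries 1, 2 and 3 and 1045, 1197 and 1001 CPM in ENL libraries 1, 2 and 3. Every ENL library was below every control library. The mean fell from 1707 ± 136 (SD, n = 3) to 1081 ± 103 CPM, on the log2 scale by 0.66 ± 0.10 (SE, edgeR adjusted p = 0.00314). The call was kept in each alternative setting and without each library, with log2 values from -0.74 to -0.59 on leaving out libraries.

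TUBA1C (chromosome 12, 49188736 to 49274603, plus strand), a widely expressed alpha gene of the same cluster, was at 816, 864 and 781 CPM in control and 533, 626 and 515 CPM in ENL. The groups did not overlap. It fell by 0.56 ± 0.10 (log2, adjusted p = 0.00502), with means of 821 ± 41.7 and 558 ± 59.4 CPM. TUBA1A (chromosome 12, 49184796 to 49189324, minus strand), the alpha gene of developing neurons, was much less abundant, at 56.0, 70.5 and 82.9 CPM in control and 40.2, 47.9 and 48.3 in ENL. Its lowest control library still lay above its highest ENL library. TUBA1A fell by 0.62 ± 0.16 (log2, adjusted p = 0.0202), but its call was lost without control library 2 (adjusted p = 0.0575), control library 3 (0.0635) or ENL library 1 (0.0647). The sum of the 3 genes, taken before the fit, does not depend on how reads were divided among them. It was at 2505, 2798 and 2488 CPM in control and 1618, 1871 and 1564 in ENL, and fell by 0.62 ± 0.10 (log2, adjusted p = 0.00365).

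TUBA4A (chromosome 2, 219249711 to 219278170, minus strand), an alpha gene known from platelets and muscle, was the least abundant of the members. It held 374, 434 and 252 units in control and 210, 241 and 254 in ENL, or 4.20 ± 1.20 and 3.22 ± 0.272 CPM. The groups overlapped, and its log2 value of -0.38 ± 0.24 did not pass (95% interval -0.95 to 0.19, adjusted p = 0.253). That value was -0.58 without control library 3 and -0.17 without control library 2. Exons of STK16 on the opposite strand overlap it by 627 bases. STK16 rose by 0.43 ± 0.10 on the log2 scale (adjusted p = 0.0149), and its part in the TUBA4A values was not tested.

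TUBB6 (chromosome 18, 12307669 to 12344320, plus strand), a beta gene known from muscle precursors, whose overexpression disturbs microtubule arrays, had the largest change of the 10 members. It was at 36.9, 42.5 and 41.1 CPM in control and 15.4, 15.3 and 16.4 CPM in ENL. The 3 ENL libraries were close together and far below control. The mean fell from 40.2 ± 2.88 to 15.7 ± 0.618 CPM, by 1.35 ± 0.10 on the log2 scale (adjusted p = 0.000151), and the call was kept in each alternative setting and without each library. AFG3L2, which has 837 exon bases in common with TUBB6 on the other strand, fell by 0.55 ± 0.07 on the log2 scale (adjusted p = 0.00132), and its part in the TUBB6 values was not tested.

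TUBB4B (chromosome 9, 137241213 to 137243707, plus strand), a broadly expressed beta gene also prominent in cilia, was at 638, 707 and 661 CPM in control and 534, 579.8 and 463 in ENL. The groups did not overlap. It fell by 0.35 ± 0.10 (log2, adjusted p = 0.0337), with means of 669 ± 35.2 and 526 ± 58.9 CPM. The call was lost without control library 1 (adjusted p = 0.0671), control library 2 (0.113), control library 3 (0.0892) or ENL library 1 (0.0805).

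TUBB (chromosome 6, 30720201 to 30725426, plus strand), the common beta gene of dividing cells, had the smallest difference of the 10 members. Control libraries had 599, 640.2 and 635 CPM and ENL libraries 561, 587 and 615 CPM, so that the groups overlapped. The log2 value was -0.09 ± 0.07 with a 95% interval of -0.27 to 0.09 (adjusted p = 0.388). It moved with the scaling, since by library totals alone TUBB was called lower (-0.29, adjusted p = 0.0255), and after correcting for GC content and transcript length it stood at 0.04 (adjusted p = 0.561).

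TUBB2A (chromosome 6, 3153669 to 3157526, minus strand) and TUBB2B (chromosome 6, 3224261 to 3231730, minus strand) encode nearly the same protein, much used in the developing brain. TUBB2A was at 38.4, 34.6 and 36.3 CPM in control and 38.7, 44.5 and 35.1 in ENL, with a log2 value of 0.12 ± 0.11 (95% interval -0.15 to 0.38, adjusted p = 0.448). By library totals alone that value was -0.10. TUBB2B lay close together in control, at 18.1, 19.8 and 19.0 CPM, and apart in ENL, at 25.8, 4.67 and 21.1 CPM. ENL library 2 thus had the lowest TUBB2B and the highest TUBB2A level of the 6 libraries. The log2 value of TUBB2B was -0.14 ± 0.58 with ENL library 2 (adjusted p = 0.868) and 0.31 ± 0.13 without it (adjusted p = 0.115). The sum of both genes was 56.4, 54.3 and 55.3 CPM in control and 64.5, 49.2 and 56.2 in ENL, a log2 value of 0.03 ± 0.11 (adjusted p = 0.834). The groups overlapped in the sum as in each gene.

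TUBB3 (chromosome 16, 89921392 to 89938761, plus strand) varied widely within control. It was at 454, 162 and 458 CPM in control libraries 1, 2 and 3 and at 183, 181 and 277 CPM in ENL. Control library 2 was below all ENL libraries, and the other control libraries were above them. The log2 value was -0.74 ± 0.43 (95% interval -1.80 to 0.31, adjusted p = 0.221). Without control library 2 it was -1.09 ± 0.20 (adjusted p = 0.013). AC092143.1, a readthrough gene that shares 1584 exon bases with TUBB3 on the same strand, held 830 units in control library 2, 3 in ENL library 2 and 0 in the other libraries. TUBB3 itself held 13141 units in control library 2 and 39673 and 38966 in control libraries 1 and 3. The part of AC092143.1 in the TUBB3 values was not tested. Summed with AC092143.1, the log2 value was -0.76 ± 0.41 (adjusted p = 0.195).

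**Figure D2:**
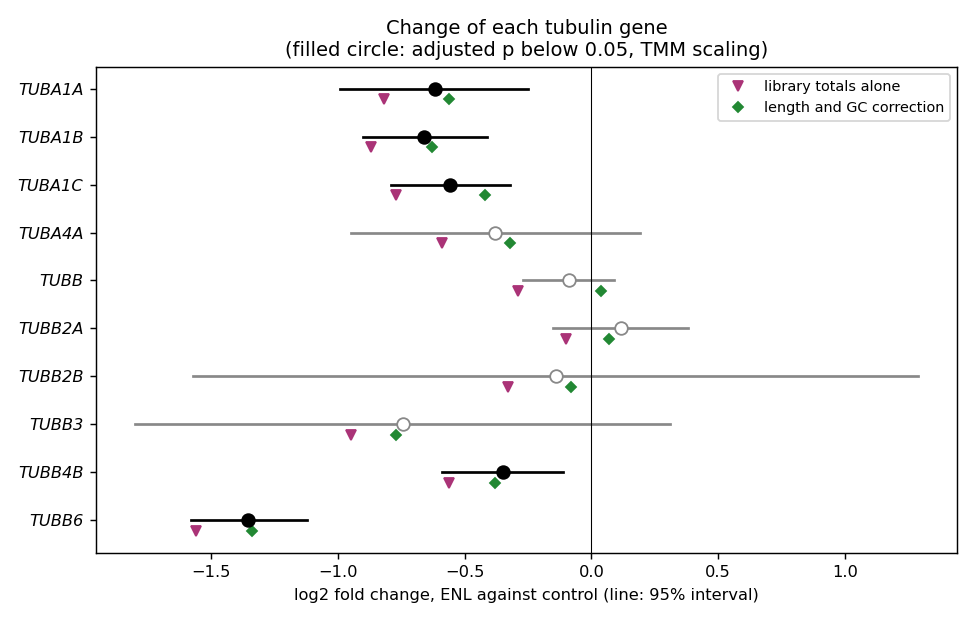
Log2 fold change of each tubulin gene, ENL against control, with its 95% interval (line) in the fit with TMM scaling (circles, filled where the adjusted p was below 0.05). Triangles give the value under scaling by library totals and diamonds that after a correction for length and GC content. TUBB6 lies lowest (-1.35), the 3 TUBA1 genes lie between -0.66 and -0.56 with TMM scaling, TUBB crosses 0 with the correction and TUBB2A with the scaling by totals.

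To compare levels between genes, CPM were divided by the length in kb of the longest annotated transcript, taken from protein-coding transcripts where possible. In control cells TUBA1B led with 1049 ± 83.4 CPM per kb, followed by TUBB4B (409 ± 21.5), TUBA1C (273 ± 13.9), TUBB (215 ± 7.74) and TUBB3 (181 ± 85.8). TUBA1A (36.5 ± 7.02), TUBB2A (22.8 ± 1.19), TUBB6 (19.5 ± 1.40), TUBB2B (9.37 ± 0.416) and TUBA4A (1.68 ± 0.479) came far below. In that order TUBB and TUBB3 overlapped and the other neighbours did not. In ENL-treated cells TUBA1B (664 ± 63.4) and TUBB4B (321 ± 36.0) still led, but TUBB (202 ± 9.32) and TUBA1C (186 ± 19.8) overlapped. TUBB3 (108 ± 27.7) came next. TUBB2A (24.7 ± 2.97) and TUBA1A (23.7 ± 2.40) overlapped too, as did TUBB2B (2.31 to 12.8) and TUBB6 (7.62 ± 0.299), and TUBA4A was lowest (1.29 ± 0.109). The place of TUBA1C depends on the length used, since its longest transcript has 3001 bases and that of TUBA1B 1627. So does that of TUBB against TUBB4B, with 2903 and 1637 bases.

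The summed level of the alpha members was 1307, 1472 and 1303 CPM per kb in control and 842, 971 and 813 in ENL. That of the beta members was 876, 787 and 906 in control and 656, 686 and 675 in ENL. Both sums were lower in each ENL library than in any control library, at 64.3% of control for alpha and 78.5% for beta. The ratio of alpha to beta was 1.49, 1.87 and 1.44 in control and 1.28, 1.42 and 1.20 in ENL. Its groups did not overlap, but the gap between them was small (1.44 against 1.42), and the highest ratio was that of control library 2, where TUBB3 was low. No test was run on these sums.

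Within the alpha class the make-up moved by about 1 percentage point. TUBA1B held 76.8, 77.8 and 76.6 percent of the alpha sum in control and 76.3, 75.8 and 75.6 percent in ENL, and TUBA1C held 20.1 ± 0.641 and 21.2 ± 0.220 percent. In the beta class TUBB held 23.5, 28.0 and 24.1 percent in control and 29.4, 29.5 and 31.4 percent in ENL, with groups that did not overlap. The share of TUBB2A was 2.67 ± 0.139 percent in control and 3.68 ± 0.404 percent in ENL, and that of TUBB6 2.29 ± 0.296 and 1.13 ± 0.0489 percent, again without overlap. TUBB4B, the leading beta gene on this scale, held 48.0 ± 6.01 and 47.7 ± 5.16 percent. TUBB3 took 26.2, 10.4 and 25.6 percent of the beta sum in control and 14.1, 13.4 and 20.7 percent in ENL. Shares are bound to each other, so a low TUBB3 in control library 2 raises the other shares there, and they were not tested. The lead of TUBB4B depends on the length used. From CPM not divided by length, TUBB4B held 38.5 ± 4.79 percent of the beta sum in control and 37.6 ± 4.56 percent in ENL. TUBB then held 35.9 ± 3.43 percent in control and 42.0 ± 0.957 percent in ENL.

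**Figure D3:**
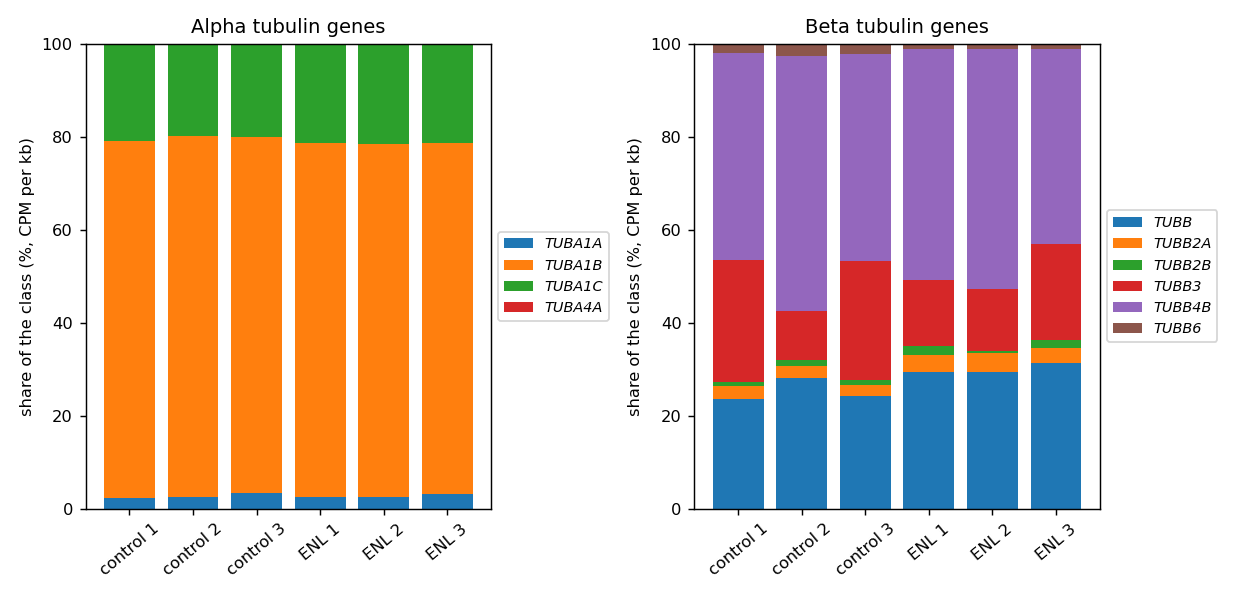
Share of each gene in the summed alpha (left) or beta (right) tubulin level, in percent of CPM per kb, for each of the 6 libraries. TUBA1B holds 75.6% to 77.8% of the alpha class and TUBA4A is too small to be seen, while the share of TUBB3 in control library 2 (10.4%) is below that of the other control libraries.

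Promoters are shown for TUBB4B and TUBA1B, both called lower, because they differ in the CCAAT box, a motif bound by the factor NF-Y and common in genes of growing cells. The sequences are RefSeq windows on GRCh38.p14, ending before the annotated start of each gene: chr9:137241037-137241212 for TUBB4B (plus strand, 176 bases) and chr12:49131398-49131645 for TUBA1B (minus strand, 248 bases). Capitals mark CCAAT, read on either strand.
TUBB4B: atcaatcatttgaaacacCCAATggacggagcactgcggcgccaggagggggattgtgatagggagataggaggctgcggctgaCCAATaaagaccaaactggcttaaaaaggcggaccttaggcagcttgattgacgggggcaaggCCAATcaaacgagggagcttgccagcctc
TUBA1B: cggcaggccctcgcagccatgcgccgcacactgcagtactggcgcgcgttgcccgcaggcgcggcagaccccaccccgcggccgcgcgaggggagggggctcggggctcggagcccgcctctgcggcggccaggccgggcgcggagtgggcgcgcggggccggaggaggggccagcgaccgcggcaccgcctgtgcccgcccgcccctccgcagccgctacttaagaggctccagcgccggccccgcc

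The TUBB4B sequence held 3 matches and the TUBA1B sequence 0. In windows of 300 bases around RefSeq starts (250 before and 50 after), CCAAT was found on either strand in 9 of the 15 windows of the 10 members, which belong to 7 genes: TUBA1A, TUBA1C, TUBB, TUBB2B, TUBB3, TUBB4B and TUBB6. It was found in 34.6% of all 35116 windows. Genes with it include called members and members that did not pass. GGGCGG, the GC box of Sp1, was in 9 of the 15 windows and in 45.0% of all. Also searched were GAANNTTC, a heat shock element (3 of the 15 windows, 6.8% of all), and TATAAA (1 of the 15, 11.5% of all). A match is a description of the letters and not of binding.

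Of 8 other alpha and beta tubulin genes listed, 5 had enough counts for the test. TUBB4A, a beta gene of the nervous system, was at 14.0, 13.2 and 14.5 CPM in control and 12.3, 13.5 and 11.2 in ENL, and did not pass (-0.17 ± 0.12, adjusted p = 0.291). The other 4, TUBB1, TUBA8, TUBB8 and TUBA3D, were rare and were called lower. TUBB4A and these 4 fall outside the rule for named genes and were chosen after their values were seen. TUBB1, the beta gene of platelets, was at 1.49, 2.32 and 3.13 CPM in control and 0.307, 0.279 and 0.361 in ENL, and fell by 2.86 ± 0.36 on the log2 scale (adjusted p = 0.00135). TUBA8 was at 1.71, 1.26 and 1.69 CPM in control and 0.644, 0.323 and 0.241 in ENL (adjusted p = 0.0124). TUBB8 was at 0.263, 0.382 and 0.176 CPM in control and TUBA3D at 0.332, 0.345 and 0.365, with a value of 0 in 1 and 2 ENL libraries. Both genes met the count filter through the control libraries, so that a difference was built into their selection and their calls support nothing. Among gamma, delta and epsilon tubulins 1 of 4 fell. The centriolar delta tubulin gene TUBD1 fell by 1.09 ± 0.15 (log2, adjusted p = 0.00187), and TUBG1, the gamma tubulin that nucleates microtubules, had a log2 value of -0.23 ± 0.10 (adjusted p = 0.106). TUBG1 was called lower by upper-quartile scaling (-0.31, adjusted p = 0.0444) and by library totals (-0.43, 0.0104).

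Genes that fold tubulin and join its dimer are described next. The counts of this and the following lists stand beside 20.0% of all tested genes called higher and 18.4% called lower, and several lie near those shares. Of the 7 folding cofactor genes, which act after the chaperonin step, 4 rose and 1 fell (median 0.42). TBCA, which holds beta tubulin, was at 164, 177 and 138 CPM in control and 266, 266 and 190.2 in ENL, and rose by 0.59 ± 0.16 (log2, adjusted p = 0.0236). TBCB, which binds alpha tubulin, rose by 0.42 ± 0.10 (adjusted p = 0.018), TBCC by 0.45 ± 0.09 (0.00885) and the small GTPase ARL2 by 0.57 ± 0.11 (0.0071). TBCD, which forms a complex with ARL2, fell from 78.0 ± 3.94 to 55.6 ± 1.23 CPM, by 0.49 ± 0.08 on the log2 scale (adjusted p = 0.00336). TBCE had a log2 value of -0.24 ± 0.09 (adjusted p = 0.0706). By library totals alone the calls of TBCA, TBCB and TBCC were lost (adjusted p = 0.0631, 0.151 and 0.0833), and TBCE was called lower (0.00736). TBCE was also called lower by upper-quartile scaling (-0.33, adjusted p = 0.0285) and with a filter of 10 CPM in 3 libraries (-0.28, 0.0391). The call of TBCA was also lost without control library 1 or 3 or ENL library 1 or 2, with adjusted p from 0.0648 to 0.0754, and that of TBCB without control library 2 or 3 or ENL library 2, from 0.0517 to 0.0595.

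Of the 6 genes of prefoldin, which hands nascent tubulin to the chaperonin, 3 rose and 0 fell (median 0.65). PFDN4 rose by 0.94 ± 0.19, PFDN5 by 0.76 ± 0.10 and PFDN2 by 0.61 ± 0.11 on the log2 scale, with adjusted p = 0.00806, 0.00164 and 0.00489. In the chaperonin 1 of 8 genes rose (CCT4, by 0.31 ± 0.08) and 1 fell (CCT7, by 0.24 ± 0.07), with a median of -0.04. The call of CCT4 was lost by upper-quartile scaling and by library totals, that of CCT7 with no filter on low counts (adjusted p = 0.0504), and both calls were lost on leaving out some libraries.

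Of 4 genes tied to tubulin mRNA decay, 1 rose and 1 fell. TTC5, which recognises nascent tubulin at the ribosome, was at 11.5, 14.2 and 13.7 CPM in control and 11.4, 7.21 and 9.51 in ENL, and its log2 value of -0.48 ± 0.19 did not pass (adjusted p = 0.086). It passed by library totals alone (adjusted p = 0.0308) and without ENL library 1 (0.0456). CNOT11, the subunit of the CCR4-NOT deadenylase through which the decay runs, fell by 0.54 ± 0.09 (log2, adjusted p = 0.00404). The adaptor gene SCAPER rose by 0.62 ± 0.17 (adjusted p = 0.0285), a call lost by library totals (0.123) and on leaving out any single library but ENL library 2 (0.0519 to 0.0961).

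Of 18 genes for enzymes that modify tubulin, largely at its tail, 7 rose and 2 fell. VASH1, which removes the C-terminal tyrosine of alpha tubulin, was at 27.5, 31.5 and 31.8 CPM in control and 14.4, 16.1 and 14.3 in ENL, and fell by 1.02 ± 0.11 on the log2 scale (adjusted p = 0.000701). Its partner SVBP rose by 0.69 ± 0.19 (adjusted p = 0.0245, and 0.0854 by library totals alone), and its call was lost without control library 2 or 3 or ENL library 1 (0.069 to 0.081). TTL, which puts the tyrosine back, had a log2 value of 0.14 ± 0.09 (adjusted p = 0.257), and was called higher after the length and GC correction (0.32, adjusted p = 0.0271). TTLL11, a polyglutamylase gene, fell by 2.15 ± 0.20 (adjusted p = 0.000402), while TTLL1, a glutamylase subunit, rose by 0.82 ± 0.15 (adjusted p = 0.00557). The deacetylase genes SIRT2 and HDAC6 rose by 0.90 ± 0.12 and 0.68 ± 0.13 (adjusted p = 0.00179 and 0.00641), and the acetyltransferase gene ATAT1 had a log2 value of -0.27 ± 0.15 (adjusted p = 0.205).

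Of 23 genes for stabilising and plus-end proteins 8 rose and 3 fell, and of 14 tested genes for destabilising and severing proteins 2 rose and 4 fell. The risen destabilising genes include STMN2, which was rare, at 0.262 ± 0.258 CPM in control and 1.80 ± 0.574 in ENL. STMN2 falls outside the rule for named genes. It met the count filter through the ENL libraries, so a difference was built into its selection and its call supports nothing. STMN3, of the tubulin-sequestering stathmin family, fell from 213 ± 2.27 to 95.6 ± 11.5 CPM, by 1.16 ± 0.10 on the log2 scale (adjusted p = 0.000304). The more abundant STMN1 had a log2 value of 0.20 ± 0.17 (adjusted p = 0.413). The microtubule-associated protein genes MAP2 and DCLK1 rose by 1.19 ± 0.13 and 1.15 ± 0.15 (adjusted p = 0.000849 and 0.00154). MAP4, MAPRE1 and CKAP5 did not pass, with log2 values of -0.09 ± 0.16, 0.04 ± 0.08 and -0.24 ± 0.11. CKAP5 was called lower by library totals (-0.44, adjusted p = 0.0383) and without ENL library 3 (-0.32, 0.0378). The spindle genes PRC1, TPX2 and KIF18B fell by 0.66 ± 0.10, 0.31 ± 0.07 and 0.66 ± 0.08, and KIF18A rose by 0.96 ± 0.11. The severing gene KATNAL1 fell by 0.77 ± 0.11, and the depolymerase gene KIF2C did not pass (0.17 ± 0.08, adjusted p = 0.122), except after the length and GC correction (0.30, 0.00582). Among the plus-end genes MAPRE3 rose by 0.65 ± 0.15 (adjusted p = 0.0129). In the gamma-tubulin ring complex and its anchors 1 of 13 genes rose (MZT1, by 0.56 ± 0.13) and 3 fell, TUBGCP5 by 0.95 ± 0.15, PCNT by 0.68 ± 0.17 and NME7 by 0.45 ± 0.13. The calls of MZT1, PCNT, NME7, TPX2 and MAPRE3 were each lost without at least 1 library, and that of MZT1 also by library totals (adjusted p = 0.0765).

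**Figure D4:**
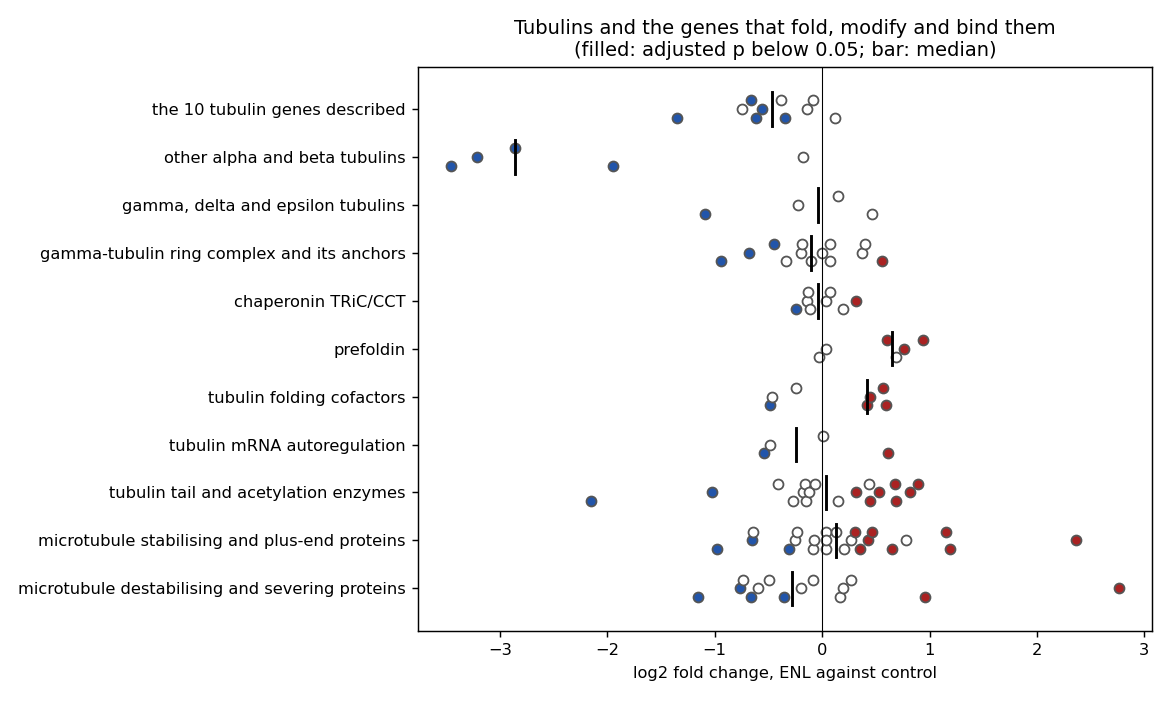
Log2 fold change, ENL against control, of every tested gene in 11 lists of tubulins and of genes that fold, modify or bind them. Each point is a gene, filled where the adjusted p was below 0.05 (blue lower, red higher), and bars are list medians. The median of the 10 tubulin genes is -0.47, that of the folding cofactors 0.42 and that of prefoldin 0.65.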

How the data were processed

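The deposited file is 1 table of whole-number estimated counts per gene symbol for 6 libraries. Per the submitters' processing notes, the tools were STAR, StringTie, FastQC and DESeq2 with the build hg38; roles and parameters are not given, and the sources do not state the annotation or versions. Between 70.8% and 73.1% of the values from 4 to 43 lay at multiples of 4 or 1 above, so the authors' estimated count is about 4 units per fragment, and counting error at low values is larger than the values alone would give.

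Genes passing filterByExpr with a count minimum of 10 were scaled with TMM, and the robust quasi-likelihood F test of edgeR (two-sided, group as the only term) was adjusted after Benjamini and Hochberg over all 14086 genes, with a threshold of 0.05. Fold changes compare ENL with control. No p was adjusted over the members alone. No pair of replicates agreed within sampling noise (chi-square per degree of freedom at least 17.4 after division by 4). Versions were DESeq2 1.42.0, limma 3.58.1 and edgeR 4.0.16 in R 4.3.3, and the test was tested on simulated data.

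Symbols were matched to GENCODE 29 (GRCh38) for 98.1% of genes, all 10 members among them, which gave positions, exon overlaps, lengths and coding sequences. Beside the members, 10 lists of related genes were read from the same fit. From each, up to 3 genes per direction past the threshold with the largest change and at least 5 CPM on average in the higher group were to be named, and TUBG1, TTC5, TBCA, TBCB, TBCC, TBCD, TBCE, TTL, VASH1, SVBP, ATAT1, HDAC6, MAP4, MAPRE1, STMN1, KIF2C and CKAP5 always. The members and lists were chosen with earlier results of these data known. The alternatives changed the scaling (size factors of DESeq2, upper quartile, or library totals alone), the test (Wald test of DESeq2, or limma-voom), the filter (none, or 10 CPM in 3 libraries), added a replicate block, divided counts by 4, corrected for transcript length and GC content with a spline, summed near-identical members, or left out each library. The sum of TUBB3 and AC092143.1 was added after seeing the data. The coding ends of the alpha genes are not reported here.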

Additional observations from a re-analysis of the deposited data

How the results depend on the processing

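Direction and call of TUBA1B, TUBA1C and TUBB6 were the same in every alternative run. Over all genes, library totals gave 1804 higher against 3996 lower calls (31.1% higher, against 52.2% with TMM), and upper-quartile scaling 42.9% and the correction for length and GC content 59.4% higher. By library totals the summed alpha and beta levels per kb had log2 ratios of -0.85 and -0.56, and by upper-quartile scaling the beta sum had -0.43, against -0.64 and -0.35 with TMM; the cause was not tested. On leaving out libraries, the number of members called lower ranged from 3 to 5 and the number called higher stayed at 0. The direction turned by library totals for TUBB2A (-0.10), TTL (-0.06), MAPRE1 (-0.17), STMN1 (-0.01) and KIF2C (-0.04, against 0.17 with TMM), by upper-quartile scaling for MAPRE1 (-0.05), by the length and GC correction for TUBB (0.04) and MAP4 (0.12), and in the sum with TUBB2A for TUBB2B (0.03). Leaving out libraries gave MAP4 from -0.26 to 0.04 and TUBB2B from -0.55 to 0.31. None of the turned values passed the test. Over the members and other named genes, 755 values under alternatives kept direction and call, 54 lost and 13 gained the call, and 11 turned. The labels give the same replicate numbers in both groups but do not state whether same-numbered libraries belong together, so pairing is not known. Deviations of same-numbered libraries correlated by 0.03, 0.05 and 0.08, and each library correlated best with its own number or tied. The fit with the replicate number as a block gave 2631 higher and 2310 lower genes and 5 lower members. Under it NME7, CCT7 and SCAPER had adjusted p = 0.0644, 0.0526 and 0.0569, and no other named gene changed its call. Depth limits TUBA4A and the rare tubulin genes, where few fragments stand behind a value.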
